A study of Homo sapiens with 10 samples.

Results

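Heat shock proteins and their J-domain cochaperones were followed in A375 cells, an established human melanoma line with mutant BRAF, after 4 days with or without doxycycline. The members were picked by gene symbol, in knowledge of earlier results of these data. They were every probe set whose gene symbol in the platform's annotation begins with HSPA, HSPB, HSPH, HSP90A, DNAJA, DNAJB or DNAJC and a number, together with HSP90AA1, HSP90AB1 and HSF1. The endoplasmic reticulum and mitochondrial genes HSPA5, HSPA9, DNAJB9, DNAJB11 and DNAJC3 were left out. Other genes of these compartments, such as DNAJA3, DNAJC30 and DNAJB14, match the rule and stayed in. This gave 60 genes with 1 probe set each, of 17492 named genes and 18569 probe sets in all. Among them were 7 HSP70 genes, 3 HSP110 genes, 2 HSP90 genes, 6 small heat shock protein genes, 4 DNAJA, 10 DNAJB and 27 DNAJC genes, and HSF1. The HSP70 genes HSPA8, HSPA1A and HSPA1B are not analysed here.

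Total RNA was hybridised to Clariom S human arrays, 1 array per sample. The doxycycline group held 5 arrays of A375 cells plated with doxycycline at 2 µg/ml, and the control group 5 arrays of A375 cells plated without it. Both were kept in serum-containing medium for the 4 days. The series title names Omomyc, a dominant-negative form of MYC, and asks about its effect on growth of this line. The labels describe no transgene, promoter or clone, so effects of Omomyc and of doxycycline itself cannot be told apart in these groups. The arrays are labelled biological replicas with no word on separate cultures, so the p-values cover only the spread among these arrays, part of which may be technical.

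Values are log2 signals after robust multi-array averaging (RMA), which gives all arrays nearly the same distribution, so a change is measured against the bulk of the probe sets. Array medians lay between 5.02 and 5.10, and precision is limited by having 5 arrays a group. Over all probe sets, arrays correlated at 0.990 to 0.996 within doxycycline, 0.993 to 0.997 within control and 0.970 to 0.976 between the groups. Of the defining genes of the melanocyte lineage, SOX10, MITF and S100B gave signal, while PMEL, MLANA, TYR and TYRP1 lay below 2.80 in both groups, which is the first quartile of the array where it was lowest. Of these 7 genes 3 were called higher (42.9%, against 20.9% of all probe sets) and none lower (against 17.2%). The 3 were MITF (1.22 ± 0.08, adjusted p = 8.34e-09), S100B (0.26 ± 0.08) and the dim TYR (0.23 ± 0.08), as log2 fold changes. The 6 fibroblast genes summed to 7.82 to 8.03 log2 units with doxycycline and 6.76 to 7.02 in control. All but THY1, which was below 2.80, were called higher (83.3%, against 20.9% of all probe sets). The 6 endothelial genes summed to 6.98 to 7.45 with doxycycline and 6.12 to 6.53 in control. KDR alone was called, higher (16.7%, against 20.9% of all probe sets), with means of 6.88 with doxycycline and 5.70 in control. PECAM1, CDH5, TEK and CLDN5 averaged below 2.80 in both groups, so the sum mostly follows KDR. The 5 leukocyte genes summed to 5.10 to 5.44 with doxycycline and 5.02 to 5.11 in control. CD14 and CD79A were called higher (40%, against 20.9% of all probe sets). PTPRC, CD3E and ITGAM averaged below 2.80 in both groups. The 5 keratinocyte genes summed to 4.78 to 5.03 with doxycycline and 4.71 to 5.00 in control. KRT5 was called higher (20%, against 20.9% of all probe sets), and KRT14, KRT1 and DSG3 averaged below 2.80 in both groups. The 6 genes of epithelial lines summed to 9.46 to 9.74 with doxycycline and 9.75 to 9.89 in control. KRT8 was called lower (16.7%, against 17.2% of all probe sets), and EPCAM and CDH1 lay below 2.80. The part of these genes in the results below was not tested. In bulk RNA, fewer cells of a type and less RNA per cell cannot be told apart.

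HSP70 chaperones bind unfolded stretches of protein and release them in a cycle driven by ATP. J-domain proteins of the DNAJ families bring clients to HSP70 and make it hydrolyse ATP, and HSP110 and BAG proteins then exchange the nucleotide so that the client can leave. HSP90 takes over many signalling proteins at a later stage of folding, while small heat shock proteins hold unfolded proteins without using ATP. The transcription factor HSF1 binds heat shock elements, repeats of a short GAA unit in alternating orientation, and switches on many of these genes under heat or proteotoxic stress. Tumour cells, melanoma included, often rely on HSF1 and HSP90 to keep mutant or overproduced proteins folded.

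The chaperones did not move as one group. Among the 60 members 19 passed the test (31.7%), which is limma at an adjusted p under 0.05, against a background of 38.1% of all probe sets. In the higher direction 12 members passed (20%, against 20.9% of all probe sets), and in the lower direction 7 (11.7%, against 17.2%). The median log2 fold change of the members was 0.03, beside 0.04 for all probe sets. Of the 8 members with a mean level of at least 9, HSPB1 and HSPH1 were called higher (25%, against 27.4% of such probe sets). None of the 8 was called lower (against 24%). The 6 not called were HSP90AA1, HSP90AB1, DNAJA1, DNAJA2, DNAJB6 and DNAJC7. DNAJB1, with a mean level of 8.79, was not called either. What stood out were single genes. HSPB8 and DNAJB5 rose 2.8-fold and 2.48-fold, and DNAJC6 fell 2.91-fold. Calls with a log2 change of 0.5 or more in size were made for 10 members, 6 higher and 4 lower, which is 16.7% against 20.2% of all probe sets. The arrays of the groups did not overlap for 16 members (26.7%, against 28.6%), 15 of them called and the remaining one DNAJC11. A group mean below 2.80 in both groups was found for 8 members, none of them called, namely HSPA1L, HSPB3, HSPB9, DNAJB7, DNAJB8, DNAJB13, DNAJC5B and DNAJC5G. The plot of fold changes by family shows every member.

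**Figure D1:**
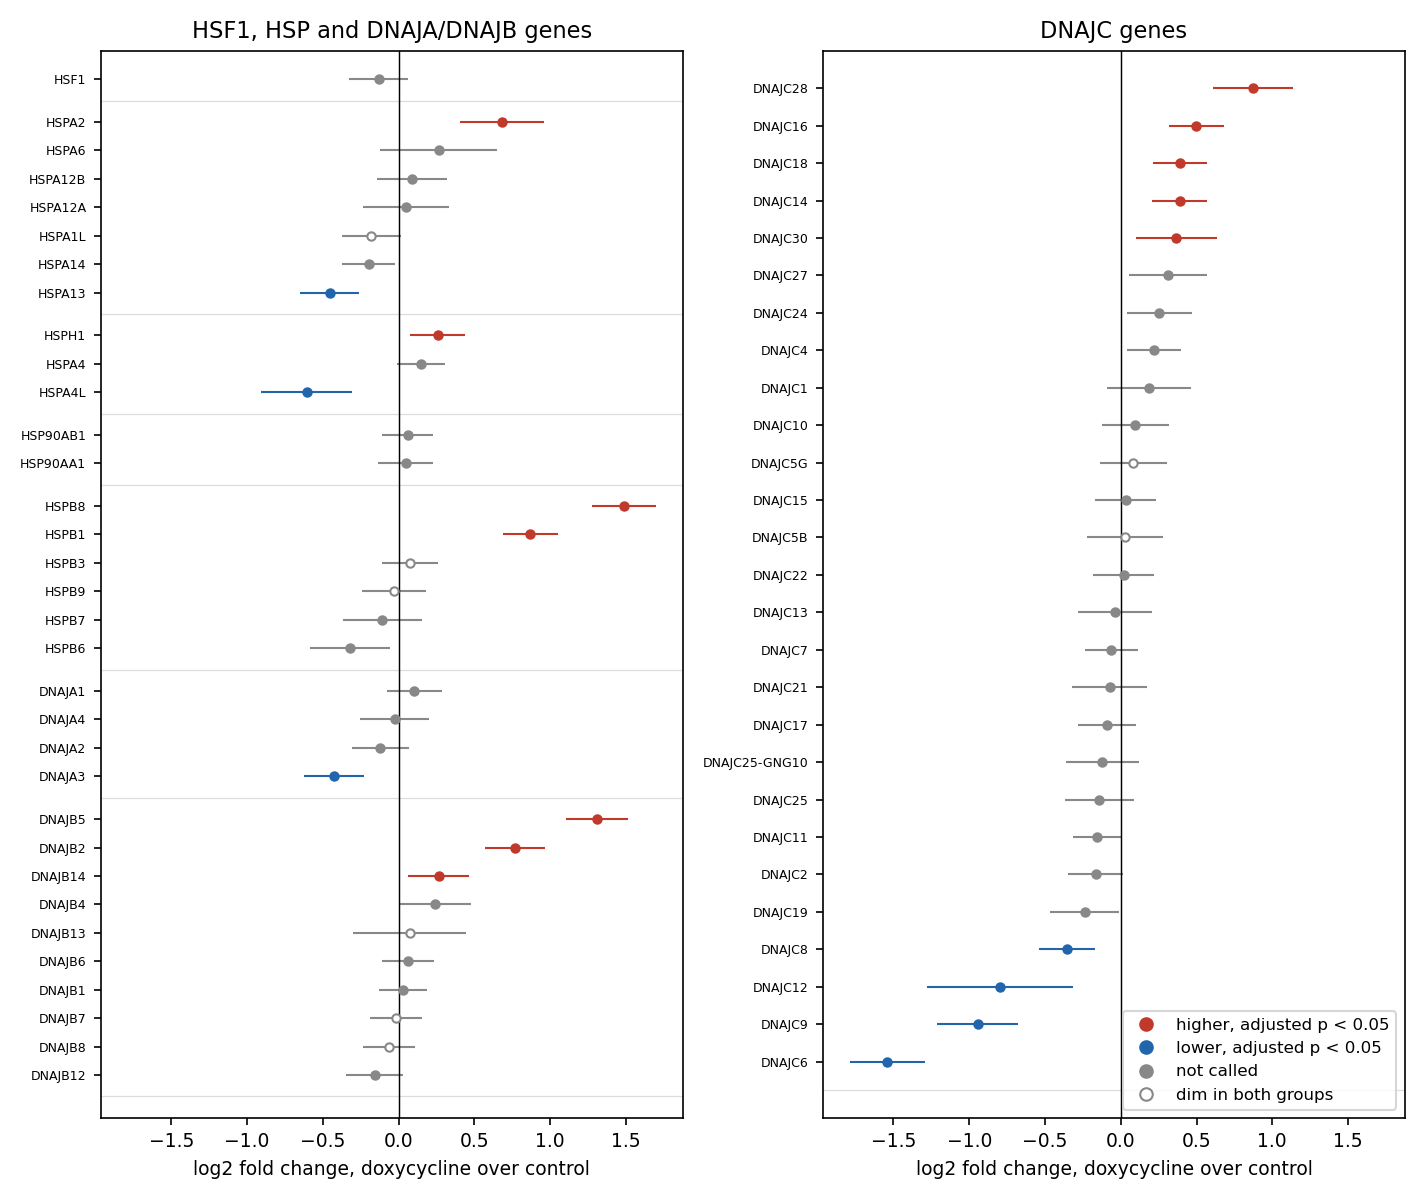
Log2 fold change of doxycycline over control for each of the 60 members, by family, with the 95% interval of the limma fit as a bar (5 arrays per group). Most points lie within 0.5 of 0, with HSPB8 (1.49) and DNAJB5 (1.31) far to the right and DNAJC6 (-1.54) far to the left.

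Plotted against signal, the members lay within the range of the other probe sets. The 52 members that were not dim in both groups had a median log2 fold change of 0.04 and a median size of change of 0.21, beside 0.05 and 0.26 for all 14344 such probe sets. Of these 52 members 36.5% were called, and of the 14344 probe sets 47.5%. Doxycycline array 1 was the array farthest from its group mean for 18 of these members, and control array 5 for 22. The median deviation over members was small on both, 0.04 log2 units on doxycycline array 1 and -0.04 on control array 5.

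**Figure D2:**
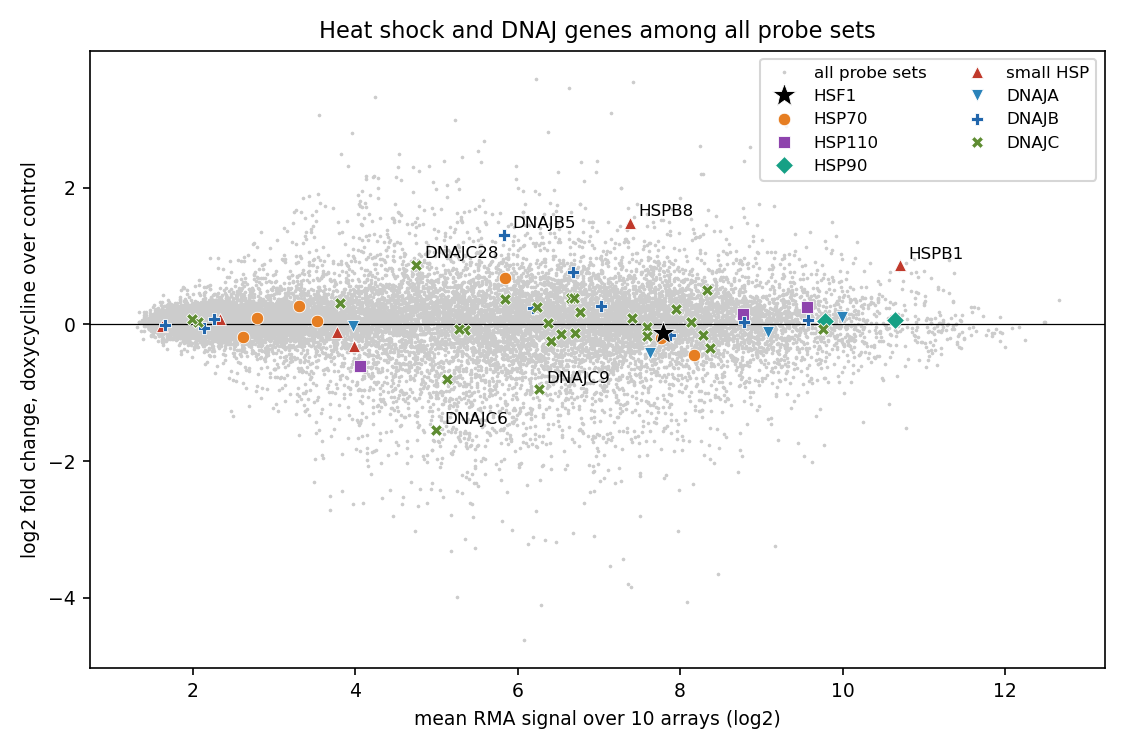
Log2 fold change of doxycycline over control against mean RMA signal over the 10 arrays, with all 18569 probe sets in grey and the members by family. The members lie inside the cloud of all probe sets, and the labels name the called members with the largest changes.

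HSF1 itself was not called. HSF1 read 7.92, 7.58, 7.59, 7.66 and 7.85 log2 units on doxycycline arrays 1 to 5, against 7.81, 7.88, 7.78, 7.79 and 8.01 log2 units on control arrays 1 to 5. The groups overlapped, and the log2 fold change was -0.13 ± 0.09 (adjusted p = 0.293, 95% interval of the fold 0.798 to 1.04). This is RNA, and the activity of HSF1 depends on steps after transcription that arrays do not measure. Promoters were searched for the letters HSF1 is known to bind, as a description of which members carry them. The search does not measure HSF1 activity. RefSeq (GRCh38.p14) gave a promoter of 300 bases, 250 before and 50 after the gene start, for 53 of the 60 members. A heat shock element of 3 units was searched as GAA, TTC and GAA, or TTC, GAA and TTC, with any bases NN between neighbouring units. One of 2 units was searched as GAANNTTC or TTCNNGAA, which any element of 3 units also contains. The MYC and MAX site, the E-box, was searched as CACGTG. Each search covered both strands, on which the shorter motifs read the same.

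The element of 3 units was found in 3 of the 53 promoters (5.66%), those of HSPA6, DNAJA1 and DNAJB6, against 0.366% of 15842 protein-coding promoters. These 3 genes were not called. The element of 2 units was found in 10 members (18.9%, against 11.4%). It was found in 2 of the 12 members called higher (16.7%, HSPB1 and HSPB8), none of the 7 called lower and 8 of the 34 not called with a promoter (23.5%). The E-box was found in 3 members (5.66%, against 8.88%), the called genes DNAJC8 and DNAJC12, both lower, and DNAJC16, higher. That is 2 of the 7 called lower (28.6%), 1 of the 12 called higher (8.33%) and none of the 34 not called. A match is a description of these letters and not a bound site. The search asked for exact letters within 300 bases, so a promoter without a match can still hold an element. The stress-inducible HSP90AA1 and DNAJB1, for example, had no match to either element. The sequences are printed 5′ to 3′ along the gene, in lower case, with the matched motifs in capitals. HSPB8 and HSPB1 are shown as the members that rose and carry the element of 2 units, though not that of 3 units. HSPA6, DNAJA1 and DNAJB6 are shown as carriers of the element of 3 units. DNAJC8 and DNAJC12 are shown as the members that fell and carry E-boxes, and the carrier that rose, DNAJC16, is not printed. HSPB8 lies at chr12:119178681-119178980 (plus strand), HSPB1 at chr7:76302423-76302722 (plus strand), HSPA6 at chr1:161524290-161524589 (plus strand), DNAJA1 at chr9:33025023-33025322 (plus strand), DNAJB6 at chr7:157336754-157337053 (plus strand), DNAJC8 at chr1:28232980-28233279 (minus strand) and DNAJC12 at chr10:67838139-67838438 (minus strand).
HSPB8: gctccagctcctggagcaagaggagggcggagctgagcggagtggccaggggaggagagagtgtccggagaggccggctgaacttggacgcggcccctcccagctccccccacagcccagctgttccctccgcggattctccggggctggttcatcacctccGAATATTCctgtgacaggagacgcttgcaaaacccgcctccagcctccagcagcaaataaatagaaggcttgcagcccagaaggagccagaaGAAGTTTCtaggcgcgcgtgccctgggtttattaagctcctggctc
HSPB1: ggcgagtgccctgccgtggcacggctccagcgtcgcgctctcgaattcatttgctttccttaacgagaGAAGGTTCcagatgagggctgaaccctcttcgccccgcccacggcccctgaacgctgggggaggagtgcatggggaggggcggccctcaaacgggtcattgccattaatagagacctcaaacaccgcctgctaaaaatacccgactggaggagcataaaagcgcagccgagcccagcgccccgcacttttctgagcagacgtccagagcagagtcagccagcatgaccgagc
HSPA6: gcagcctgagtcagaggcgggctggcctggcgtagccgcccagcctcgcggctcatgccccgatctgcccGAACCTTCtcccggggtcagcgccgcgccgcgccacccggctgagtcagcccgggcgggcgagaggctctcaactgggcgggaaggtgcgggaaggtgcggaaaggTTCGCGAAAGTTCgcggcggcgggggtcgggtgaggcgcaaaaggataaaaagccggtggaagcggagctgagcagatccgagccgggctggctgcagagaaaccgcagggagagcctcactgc
DNAJA1: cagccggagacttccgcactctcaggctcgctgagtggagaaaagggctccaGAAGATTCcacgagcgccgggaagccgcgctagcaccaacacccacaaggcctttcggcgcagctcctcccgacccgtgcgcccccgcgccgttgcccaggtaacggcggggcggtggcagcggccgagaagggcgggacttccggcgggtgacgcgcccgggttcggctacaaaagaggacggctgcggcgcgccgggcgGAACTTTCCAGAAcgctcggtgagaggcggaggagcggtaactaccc
DNAJB6: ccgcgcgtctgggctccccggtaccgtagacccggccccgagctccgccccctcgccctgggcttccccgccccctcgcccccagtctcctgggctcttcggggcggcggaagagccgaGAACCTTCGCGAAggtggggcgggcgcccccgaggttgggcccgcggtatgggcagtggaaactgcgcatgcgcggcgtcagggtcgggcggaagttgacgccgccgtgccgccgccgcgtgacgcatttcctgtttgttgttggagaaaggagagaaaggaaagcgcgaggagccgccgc
DNAJC8: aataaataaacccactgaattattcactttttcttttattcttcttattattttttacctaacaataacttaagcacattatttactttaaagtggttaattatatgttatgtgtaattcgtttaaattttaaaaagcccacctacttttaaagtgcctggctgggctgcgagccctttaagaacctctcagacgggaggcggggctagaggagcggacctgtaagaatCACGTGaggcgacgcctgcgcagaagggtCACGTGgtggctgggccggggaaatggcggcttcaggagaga
DNAJC12: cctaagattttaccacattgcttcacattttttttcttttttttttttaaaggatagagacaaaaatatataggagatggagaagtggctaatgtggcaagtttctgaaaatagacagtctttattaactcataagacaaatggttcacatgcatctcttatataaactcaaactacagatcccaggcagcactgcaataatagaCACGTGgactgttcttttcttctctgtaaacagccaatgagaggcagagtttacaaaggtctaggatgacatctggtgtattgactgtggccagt

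Small heat shock proteins included the most strongly raised member. Of the 6 genes 2 rose (33.3%, against 20.9% of all probe sets) and none fell (against 17.2%). HSPB8, also called HSP22, works with the HSP70 partner BAG3 in handing damaged proteins to autophagy. HSPB8 read 8.10, 8.31, 7.86, 8.15 and 8.20 log2 units on doxycycline arrays 1 to 5, against 6.78, 6.63, 6.57, 6.76 and 6.44 log2 units on control arrays 1 to 5. The lowest doxycycline array lay above the highest control array, and the rise was 2.8-fold (log2 1.49 ± 0.10, adjusted p = 1.73e-08). HSPB1, or HSP27, holds unfolded proteins and protects the actin skeleton. HSPB1 read 11.23, 11.11, 11.12, 10.97 and 11.28 log2 units on doxycycline arrays 1 to 5, against 10.30, 10.27, 10.15, 10.24 and 10.41 log2 units on control arrays 1 to 5. Here too the groups were fully apart, with a 1.83-fold rise (log2 0.87 ± 0.09, adjusted p = 9.67e-07). The promoters of both genes, printed above, hold the element of 2 units, as do 23.5% of the members not called that have a promoter.

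The other 4 small heat shock genes were not called. HSPB6, or HSP20, a small heat shock protein of muscle, averaged 3.83 ± 0.11 with doxycycline and 4.15 ± 0.29 in control (SD, n = 5 each), and its log2 fold change of -0.32 ± 0.12 missed the threshold (adjusted p = 0.0556). It passed without control array 3 (adjusted p = 0.0394) or control array 4 (adjusted p = 0.0183), while without control array 5 the log2 fold change was -0.21 (adjusted p = 0.134). HSPB7, a cardiac member, had a log2 fold change of -0.11 ± 0.12 (adjusted p = 0.548). The muscle gene HSPB3 and the testis gene HSPB9, both dim, had log2 fold changes of 0.08 and -0.03.

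**Figure D3:**
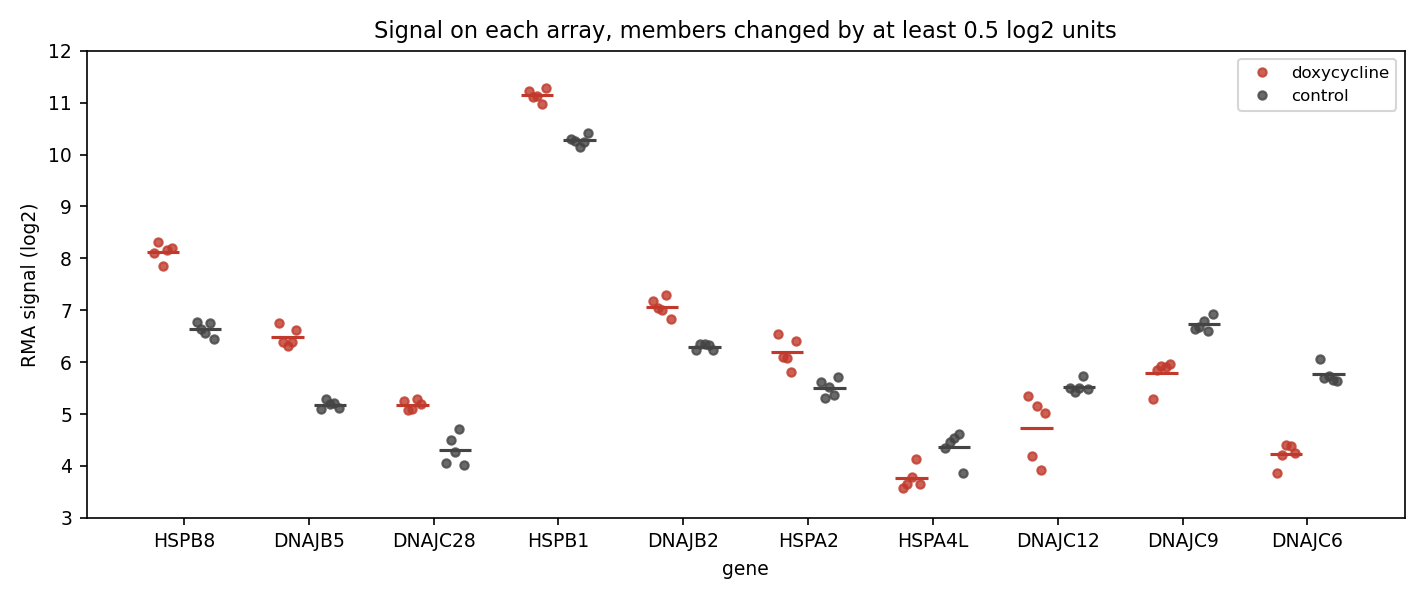
RMA signal in log2 units on each array for the 10 members called with a log2 change of 0.5 or more in size, doxycycline arrays in red to the left of control arrays in grey, with a line at each mean. HSPA4L is the only gene of the 10 whose groups overlap, and the 5 doxycycline arrays of DNAJC12 spread from 3.93 to 5.35.

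Neither cytosolic HSP90 gene was called. HSP90AA1 encodes the stress-inducible form of the chaperone. HSP90AA1 read 9.78, 9.67, 9.91, 9.81 and 9.88 log2 units on doxycycline arrays 1 to 5, against 9.87, 9.76, 9.80, 9.56 and 9.82 log2 units on control arrays 1 to 5. HSP90AB1 encodes the constitutive form. HSP90AB1 read 10.67, 10.52, 10.79, 10.69 and 10.72 log2 units on doxycycline arrays 1 to 5, against 10.69, 10.58, 10.58, 10.70 and 10.53 log2 units on control arrays 1 to 5. For each gene the groups overlapped. The fold of doxycycline over control was 1.03 for HSP90AA1, with a 95% interval of 0.912 to 1.17 (adjusted p = 0.718), and 1.04 for HSP90AB1, with a 95% interval of 0.928 to 1.17 (adjusted p = 0.598).

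Among the HSP70 genes 1 of 7 rose and 1 fell (14.3% each, against 20.9% and 17.2% of all probe sets). HSPA2, an HSP70 needed for male germ cell development in mice, rose 1.6-fold (log2 0.68 ± 0.13, adjusted p = 6.20e-04). HSPA2 read 6.54, 6.10, 6.08, 5.81 and 6.41 log2 units on doxycycline arrays 1 to 5, against 5.61, 5.32, 5.52, 5.38 and 5.71 log2 units on control arrays 1 to 5. All doxycycline arrays were above all control arrays, the closest being doxycycline array 4 and control array 5. HSPA13, an HSP70 relative attached to microsomes, fell 1.37-fold (log2 -0.45 ± 0.09, adjusted p = 9.92e-04), and its groups did not overlap. HSPA6, an HSP70 made almost only under strong stress in most cells, was near the low end of the signal. HSPA6 read 3.87, 3.37, 3.42, 2.72 and 3.82 log2 units on doxycycline arrays 1 to 5, against 3.05, 2.91, 3.35, 3.23 and 3.34 log2 units on control arrays 1 to 5. It spread widely with doxycycline and was not called (log2 0.27 ± 0.18, adjusted p = 0.283). Doxycycline array 4 was the lowest of all 10, and without it HSPA6 passed (log2 0.45, adjusted p = 0.0164). Without doxycycline array 1 its log2 fold change was 0.16 (adjusted p = 0.533), and without doxycycline array 5 it was 0.17 (adjusted p = 0.522).

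The remaining HSP70 genes were not called. HSPA14, which pairs with DNAJC2 at the ribosome, had a log2 fold change of -0.20 ± 0.08 (adjusted p = 0.0754), and passed without control array 1 (adjusted p = 0.0371) or doxycycline array 1 (adjusted p = 0.0457). Its partner DNAJC2 was not called either, at -0.17 ± 0.09 (adjusted p = 0.151). The distant relatives HSPA12A and HSPA12B had log2 fold changes of 0.05 and 0.09, and the testis gene HSPA1L, dim in both groups, had -0.18. Probe sets of closely related HSP70 genes such as HSPA6 and HSPA1L can share hybridisation with other HSP70 RNAs.

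The 3 HSP110 genes, nucleotide exchange factors of HSP70, did not all move the same way. Of them 1 was higher and 1 lower (33.3% each, against 20.9% and 17.2% of all probe sets), and 1 was not called. HSPA4L fell 1.52-fold (log2 -0.61 ± 0.14, adjusted p = 0.00282). HSPA4L read 3.58, 3.65, 3.79, 4.13 and 3.65 log2 units on doxycycline arrays 1 to 5, against 4.35, 4.46, 4.54, 4.61 and 3.87 log2 units on control arrays 1 to 5. Doxycycline array 4 and control array 5 crossed, so the groups overlapped. HSPH1, or HSP105, rose by a small amount, 1.2-fold (log2 0.26 ± 0.08, adjusted p = 0.0249), with means of 9.69 ± 0.11 with doxycycline and 9.43 ± 0.10 in control (SD, n = 5 each). That call was lost on leaving out any one of control arrays 1, 2, 3 and 5 or doxycycline arrays 3 and 5 (adjusted p = 0.0502 to 0.0690). HSPA4 averaged 8.85 ± 0.06 with doxycycline and 8.69 ± 0.07 in control (SD, n = 5 each) and was not called (log2 0.15 ± 0.07, adjusted p = 0.13).

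Of the 4 DNAJA genes, which resemble the bacterial DnaJ most closely, 1 was called (25%, against 38.1% of all probe sets). DNAJA3, the J protein of the mitochondrial matrix, fell 1.34-fold (log2 -0.43 ± 0.09, adjusted p = 0.00162), with no overlap between the groups. DNAJA1, a main cytosolic partner of HSP70 and a carrier of the element of 3 units printed above, averaged 10.04 ± 0.15 with doxycycline and 9.94 ± 0.04 in control (SD, n = 5 each). Its fold had a 95% interval of 0.947 to 1.22 (adjusted p = 0.381). DNAJA2, a second cytosolic partner, had a 95% interval of 0.808 to 1.05 for the fold (adjusted p = 0.33), and DNAJA4 had a log2 fold change of -0.03.

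Among the 10 DNAJB genes 3 rose (30%, against 20.9% of all probe sets) and none fell (against 17.2%). DNAJB5, a cytosolic J protein closely related to DNAJB1 and DNAJB4, rose 2.48-fold (log2 1.31 ± 0.10, adjusted p = 4.26e-08). DNAJB5 read 6.76, 6.38, 6.32, 6.39 and 6.61 log2 units on doxycycline arrays 1 to 5, against 5.09, 5.29, 5.20, 5.20 and 5.11 log2 units on control arrays 1 to 5. The gap between the lowest doxycycline array and the highest control array was wider than the spread within either group. DNAJB2, a J protein of neurons that binds ubiquitin and guides clients to the proteasome, rose 1.71-fold (log2 0.77 ± 0.09, adjusted p = 8.57e-06). DNAJB2 read 7.18, 7.04, 7.00, 7.29 and 6.82 log2 units on doxycycline arrays 1 to 5, against 6.23, 6.35, 6.35, 6.33 and 6.23 log2 units on control arrays 1 to 5. Again the groups were fully apart.

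The nearest relatives of DNAJB5 were not called. DNAJB1, the classical heat-inducible HSP40, averaged 8.81 ± 0.09 with doxycycline and 8.78 ± 0.04 in control (SD, n = 5 each), with a 95% interval of 0.914 to 1.14 for the fold (adjusted p = 0.796). DNAJB4 had a log2 fold change of 0.24 ± 0.11 (adjusted p = 0.101), and passed without doxycycline array 1 (adjusted p = 0.0158). DNAJB6, which keeps polyglutamine proteins from aggregating and has the element of 3 units, averaged 9.61 ± 0.12 with doxycycline and 9.54 ± 0.07 in control (SD, n = 5 each) (adjusted p = 0.604). DNAJB14, in the membrane of the endoplasmic reticulum, rose 1.2-fold (adjusted p = 0.037), but the call was lost on leaving out any one of control arrays 1 to 4 or doxycycline arrays 1, 4 and 5 (adjusted p = 0.0531 to 0.0990). Its relative DNAJB12 was not called (log2 -0.16 ± 0.09, adjusted p = 0.186), and it passed without doxycycline array 1 (adjusted p = 0.0408). DNAJB7, DNAJB8 and DNAJB13, dim in both groups, lay between -0.06 and 0.07.

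The 27 DNAJC genes share little beyond the J domain and serve many processes. Here 5 rose (18.5%, against 20.9% of all probe sets) and 4 fell (14.8%, against 17.2%), and their median log2 fold change was 0.02. DNAJC6, or auxilin, recruits HSP70 to strip clathrin from endocytic vesicles and is best known from neurons. DNAJC6 read 3.86, 4.22, 4.41, 4.38 and 4.25 log2 units on doxycycline arrays 1 to 5, against 6.07, 5.70, 5.74, 5.67 and 5.64 log2 units on control arrays 1 to 5. This was the largest fall of any member, 2.91-fold (log2 -1.54 ± 0.12, adjusted p = 5.75e-08), and the groups were far apart. DNAJC9, a chaperone of histones H3 and H4, fell 1.92-fold (log2 -0.94 ± 0.13, adjusted p = 2.19e-05). DNAJC9 read 5.28, 5.85, 5.93, 5.91 and 5.96 log2 units on doxycycline arrays 1 to 5, against 6.64, 6.68, 6.79, 6.60 and 6.93 log2 units on control arrays 1 to 5. Doxycycline array 1 was lowest, and without it the log2 fold change was still -0.82.

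DNAJC12, a cochaperone of the aromatic amino acid hydroxylases, fell 1.74-fold (log2 -0.80 ± 0.22, adjusted p = 0.0106). DNAJC12 read 5.35, 4.20, 5.16, 3.93 and 5.02 log2 units on doxycycline arrays 1 to 5, against 5.49, 5.43, 5.50, 5.74 and 5.48 log2 units on control arrays 1 to 5. Doxycycline arrays 2 and 4 were well below the other doxycycline arrays, and all 5 lay below the lowest control array. Without doxycycline array 4 the log2 fold change was -0.60. DNAJC28 rose 1.83-fold (log2 0.87 ± 0.12, adjusted p = 4.42e-05). DNAJC28 read 5.24, 5.09, 5.10, 5.29 and 5.19 log2 units on doxycycline arrays 1 to 5, against 4.05, 4.50, 4.26, 4.71 and 4.01 log2 units on control arrays 1 to 5. Here the control arrays spread more than the doxycycline arrays, and the groups did not overlap.

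Smaller changes were called for 5 more DNAJC genes. DNAJC16 (0.50 ± 0.09), DNAJC18 (0.39 ± 0.08) and DNAJC14 (0.39 ± 0.09) rose, as log2 fold changes, and their groups did not overlap. DNAJC30, a mitochondrial protein needed for the upkeep of respiratory complex I, rose as well (0.37 ± 0.13, adjusted p = 0.0311). Its call was lost without any one of control arrays 1, 2 and 5 or doxycycline arrays 1 and 4 (adjusted p = 0.0594 to 0.0794). DNAJC8, a splicing factor with 2 E-boxes in the promoter printed above, fell (-0.35 ± 0.09, adjusted p = 0.00409), and its groups did not overlap.

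The other 18 DNAJC genes were not called. DNAJC7, which bridges HSP70 and HSP90, averaged 9.72 ± 0.11 with doxycycline and 9.78 ± 0.09 in control (SD, n = 5 each), with a 95% interval of 0.848 to 1.08 for the fold (adjusted p = 0.597). DNAJC11, an outer membrane protein of mitochondria, had groups that did not overlap but a log2 fold change of only -0.16 ± 0.08 (adjusted p = 0.126). The remaining 16 ranged from -0.24 for DNAJC19, part of the mitochondrial import motor, to 0.31 for DNAJC27. Among them DNAJC25 and the read-through gene DNAJC25-GNG10 share sequence, and had -0.14 and -0.12. Leaving out 1 array brought 4 of these past the threshold. DNAJC19 passed without control array 4 (adjusted p = 0.0474) or doxycycline array 2 (adjusted p = 0.0315). DNAJC24, needed to make diphthamide, had a log2 fold change of 0.25 ± 0.10 and passed without control array 4 (adjusted p = 0.0236). DNAJC27 passed without control array 2 or 4 or doxycycline array 1 (adjusted p = 0.0235 to 0.0372), and DNAJC4 (0.22 ± 0.08) without doxycycline array 3 or 4 (adjusted p = 0.0335 to 0.0375). In all, 38 of the 41 members that were not called had a 95% interval inside 0.5 log2 units in size. The intervals of HSPA6, HSPB6 and DNAJC27 reached beyond it. The 38 include the 8 members dim in both groups, for which a narrow interval near background says little.

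Partners of the chaperones were described from further gene lists. Apart from the HSF list, these lists held no gene that was dim in both groups, and dim probe sets are rarely called. Among the 14344 probe sets that were not dim, 25.7% were called higher and 21.8% lower. For these lists the shares of all probe sets are therefore low as a background. Of 17 measured HSP90 cochaperones 7 fell and 1 rose (41.2% and 5.88%, against 17.2% and 20.9% of all probe sets), and their median log2 fold change was -0.16. RUVBL2, an ATPase that assembles large complexes with HSP90 (-0.59 ± 0.12), PTGES3, the p23 cochaperone that stabilises the closed form of HSP90 (-0.54 ± 0.09), and TTI1, which helps HSP90 assemble mTOR-related kinases (-0.51 ± 0.13), fell most. CDC37L1, a relative of the kinase cochaperone CDC37, rose (0.53 ± 0.08). CHORDC1 (-0.07 ± 0.09) and the phosphatase PPP5C (-0.003 ± 0.08) were not called.

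Exchange factors and adaptors of HSP70 went both ways, with 3 of 9 lower (33.3%, against 17.2% of all probe sets) and 2 higher (22.2%, against 20.9%). BAG2, an exchange factor that restrains the ubiquitin ligase CHIP, fell 2.14-fold (-1.10 ± 0.09, adjusted p = 1.39e-07). BAG1 (-0.69 ± 0.15) and STUB1, which encodes CHIP itself (-0.34 ± 0.09), fell too, while BAG5 (0.25 ± 0.09) rose. BAG3 read 8.73, 8.44, 8.43, 8.52 and 8.48 log2 units on doxycycline arrays 1 to 5, against 8.64, 8.71, 8.65, 8.60 and 8.69 log2 units on control arrays 1 to 5. BAG3, the partner of HSPB8, was thus not called (adjusted p = 0.201), and its groups overlapped. ST13, which holds HSP70 on its client, was not called (0.05 ± 0.08).

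In the list of the HSF family and its regulators 3 of 6 measured genes rose (50%, against 20.9% of all probe sets) and 1 fell (16.7%, against 17.2%). The list named 8 genes, and HSF2 and HSF4 were not among those measured. Its only measured heat shock factor, HSF5, was dim and not called (0.15 ± 0.10), and HSBP1L1 was dim and not called as well. The genes that rose are regulators. IER5, which helps activate HSF1, rose 1.59-fold (0.67 ± 0.11, adjusted p = 1.96e-04), as did DEDD2 (0.33 ± 0.09) and HSBP1, an inhibitor of HSF1 trimers (0.32 ± 0.12). HSF2BP, a meiosis gene named for its binding to HSF2, fell (-0.96 ± 0.13). A list of HSF1 targets and related stress genes had 7 of 14 lower (50%, against 17.2% of all probe sets) and 4 higher (28.6%, against 20.9%), with a median log2 fold change of -0.21. It shares IER5, DEDD2, BAG3, STIP1, FKBP4, PTGES3 and CHORDC1 with the lists above. Mitochondrial chaperones had the largest falls there. TRAP1, the HSP90 of mitochondria, read 5.02, 4.79, 4.70, 4.67 and 4.62 log2 units on doxycycline arrays 1 to 5, against 7.90, 7.97, 7.99, 7.77 and 7.95 on control arrays 1 to 5, an 8.91-fold fall (-3.16 ± 0.09, adjusted p = 4.41e-12). HSPE1, the lid of the mitochondrial chaperonin, fell as well (-1.13 ± 0.09), and so did the chaperonin HSPD1 (-2.02 ± 0.09). CRYAB, a small heat shock protein whose symbol lies outside the HSPB names, rose 1.66-fold (0.73 ± 0.12, adjusted p = 2.15e-04) with a mean of 3.12 with doxycycline and 2.39 in control, where it lay below 2.80. UBB, a ubiquitin gene, was not called (0.09 ± 0.08).

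Prefoldin hands new actin and tubulin to the chaperonin. Of 8 genes of prefoldin and of proteins related to it, 2 fell (25%, against 17.2% of all probe sets) and none rose (against 20.9%). They were URI1, a prefoldin-related protein (-1.10 ± 0.10), and PFDN2 (-0.43 ± 0.09). PFDN5 (0.12 ± 0.08) and UXT (-0.27 ± 0.12) were not called. Of the 5 genes left out by the rule, DNAJB9 (0.53 ± 0.09) and DNAJC3 (0.32 ± 0.10) rose, the mitochondrial HSP70 gene HSPA9 fell (-0.52 ± 0.08), and HSPA5 and DNAJB11 were not called. Heat shock genes also respond to how cells are handled. Of 14 immediate early genes, which do so within minutes, 10 rose (71.4%, against 20.9% of all probe sets), among them EGR1 (1.76 ± 0.09). Only ATF3 fell (-0.61 ± 0.10), which is 7.14% against 17.2%. The summed level of the 14 genes was 12.15 to 12.41 log2 units with doxycycline and 11.53 to 11.58 in control. The part of handling in the changes of the chaperones was not tested.

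**Figure D4:**
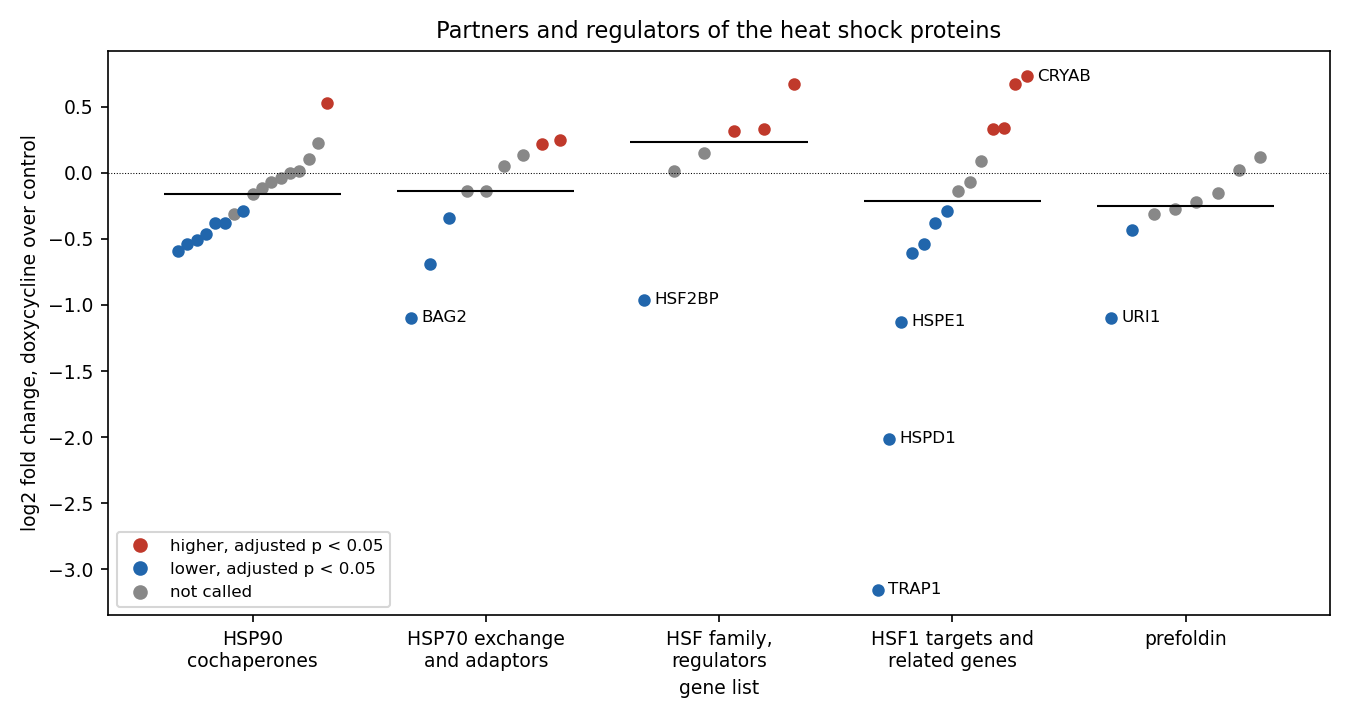
Log2 fold change of doxycycline over control for the measured genes of 5 partner lists, 1 point per gene in order of size, with a line at each list's median (5 arrays per group). The points of HSP90 cochaperones and prefoldin lie mostly below 0, and TRAP1 (-3.16), HSPD1 (-2.02) and HSPE1 (-1.13) are the lowest of the HSF1 targets and related genes.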

How the data were processed

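RNA of 10 samples was measured on Clariom S human arrays, 5 with doxycycline and 5 control. The authors deposited log2 expression values made with RMA, per the submitters' processing notes. What software version and probe library they used is not given in the sources used here. Values ran from 1.14 to 12.9.

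Gene symbols came from the platform annotation (17511 probe sets with 1 symbol). The difference of doxycycline minus control was fitted with limma 3.58.1 (lmFit, eBayes; R 4.3.3) on group alone. Two-sided p-values were adjusted by Benjamini-Hochberg over the 18569 probe sets, and an adjusted p under 0.05 made a call. Errors after ± are limma standard errors for fold changes and SDs for levels, and 95% intervals come from the same fit, unadjusted. The test was checked on simulated data.

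Members and lists were chosen with earlier results of these data known, so their shares of calls are descriptions. Every HSP gene was named, and of the DNAJ genes those called at 0.5 or more in log2 size, the brightest of each class, and the brightest that were not called. Of other lists up to 4 called genes were named by size. Further genes were named after their values were seen, to account for calls. Alternatives were filters, variance model, scaling, a replicate block, leaving out each array and an adjusted p under 0.01. The labels do not say that replicate numbers pair the arrays. Deviations of same-numbered arrays correlated at -0.44 to -0.01, and those of arrays with other numbers at -0.25 to 0.16. The block is therefore an alternative only. The labels give no batch.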

Additional observations from a re-analysis of the deposited data

Results flagged for a closer look

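Both groups of all 60 members (120 sets of 5 arrays) were searched for a lone array, one set apart from the other 4 by more than 0.71 of the group's range. Chance finds about 1 in 20 such sets, and 7 were found. With doxycycline, array 1 was alone in 3 genes. It was lowest for DNAJC9, at 5.28 against 5.85 to 5.96 on the others, lowest for DNAJC13, an endosomal J protein, at 7.15 against 7.61 to 7.78, and highest for DNAJB12, at 8.04 against 7.71 to 7.78. In control, array 4 was highest for DNAJC12, at 5.74 against 5.43 to 5.50, and for DNAJC2, at 7.80 against 7.62 to 7.65. Control array 1 was highest for DNAJC6, at 6.07 against 5.64 to 5.74, and control array 2 was highest for DNAJB6, at 9.67 against 9.49 to 9.54. The falls of DNAJC6, DNAJC9 and DNAJC12 were called without each of these arrays.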

How the results depend on the processing

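Over all 17 alternatives the number of members called higher was 9 to 15 and the number called lower 6 to 9, and all counts stayed within 1.5 times those reported. Leaving out 1 array gave 9 to 13 higher and 7 to 9 lower. An adjusted p under 0.01 gave 9 higher and 6 lower. In the 16 other alternatives, 16 of the 19 called members passed wherever they were tested, HSPB8, HSPB1, DNAJB5 and DNAJC6 among them, and none changed sign. HSPH1, DNAJB14 and DNAJC30 missed in at least 1 setting. HSPH1 was also lost after a second quantile normalization (adjusted p = 0.0522) and with the replicate block (adjusted p = 0.0537). The block gave 11 members higher and 7 lower, and 6476 probe sets in all against 7078. Of 41 members not called, 9 passed in at least 1 setting, for example DNAJC4 without the dimmer part of the probe sets (adjusted p = 0.0228). Log2 fold changes near 0 changed sign for 11 members that were not called. On leaving out 1 array they ranged from -0.027 to 0.177 for HSPA12A, -0.003 to 0.083 for HSP90AA1, -0.082 to 0.049 for HSPB9, -0.09 to 0.051 for DNAJA4, -0.07 to 0.165 for DNAJB13, -0.048 to 0.014 for DNAJB7, -0.089 to 0.069 for DNAJC13, -0.008 to 0.094 for DNAJC15, -0.13 to 0.02 for DNAJC21, -0.041 to 0.066 for DNAJC22 and -0.036 to 0.117 for DNAJC5B. Centring arrays on their medians, which turned the share of higher calls among all calls to 60.1% from 54.7%, gave 0.007 for HSPB9, 0.008 for DNAJA4 and 0.018 for DNAJB7, and the second quantile normalization gave -0.007 for DNAJC5B. Signal near background limits the dim members, for which small changes could not be seen.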
